A study of Mus musculus with 24 samples.

Results

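The comparison set adipose tissue of mice given both interventions, partial nephrectomy and the NaKtide peptide (PNx+NaKtide), against that of sham-operated mice given neither (Control), and asks what still differed from Control when NaKtide was present in uremic animals. It holds 12 of the 24 libraries of the series, 6 in each group, chosen by their labels alone, and covers the 26116 genes whose counts over all 24 libraries add up to more than 10. PNx+NaKtide mice had their right kidney removed and the left one ligated so that part of it kept working, and received 100 uL of a lentivirus whose adiponectin promoter drives NaKtide together with green fluorescent protein (GFP). Control mice had the sham operation and the same volume of a lentivirus in which that promoter drives GFP alone. All were C57BL6 mice, male according to the methods of the study and 10 weeks old according to the series, so that every Control animal carried a lentiviral transgene too. The other 12 libraries, sham with NaKtide (NaKtide) and nephrectomy with GFP (PNx), entered the fit and are quoted only beside the genes described here. The transgene reaches cells that use the adiponectin promoter, and its own transcript was not analysed here.

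The Na,K-ATPase is the pump that exchanges sodium for potassium across the plasma membrane, and it also binds the tyrosine kinase Src. Reactive oxygen species or cardiotonic steroids can release Src from the pump, and the signalling that follows makes more reactive oxygen species. NaKtide is a peptide taken from the pump that holds Src in check. White adipose tissue stores triglyceride in adipocytes and secretes adipokines, and uremia is known to place it under oxidant stress.

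The lowest p values were those of genes with lower values in PNx+NaKtide, but the ranking did not run in 1 direction only. Cdc25a, which was higher, had an unadjusted edgeR p of 0.000191, against 0.000371 for Slc22a4 and 0.000802 for Slc35e4. The genes given next are taken from the 12 protein-coding genes of lowest p on the lower side. Nrsn1 (neurensin, a vesicle protein of neurons), Gprin1 (a G protein regulated inducer of neurite outgrowth), Pidd1 (a death domain protein induced by p53), Slc22a4 (a transporter of organic cations and ergothioneine) and Slc35e4 (a member of the nucleotide sugar transporter family) had log2 fold changes between -2.88 and -6.61, with all 6 PNx+NaKtide libraries below all 6 Control libraries. At the adjusted p under 0.1 that the study used, edgeR's quasi-likelihood test called 0 of 26116 genes, and the lowest adjusted p was 0.316. DESeq2 called 33 genes (0.126%), 5 higher (0.0191%) and 28 lower (0.107%), limma voom with sample weights called 319 (1.22%), 85 higher (0.325%) and 234 lower (0.896%), and the same edgeR test fitted to the 12 compared libraries alone called 84 (4 higher and 80 lower). A total of 26 lower genes were shared by these 3 alternatives, and the text gives the adjusted p of each where it matters.

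At an unadjusted p under 0.05, edgeR's quasi-likelihood test separated 942 genes (3.61% of those tested), 426 higher (1.63%) and 516 lower (1.98%) in PNx+NaKtide. This threshold carries no correction for multiple testing. It is used here to order genes and to count the members of gene lists, and each such count is to be read against these shares. Among the 10718 genes of at least 5 CPM (counts scaled to a common library size), 56 were higher (0.522%) and 188 lower (1.75%). The median log2 fold change of all tested genes was 0.04.

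Libraries held 1281905 to 2366069 counts, and 3 counts, the most that a count of 0 allows, corresponded to 1.27 to 2.34 CPM. Total counts averaged 1874070 ± 271775 (SD, n = 6) in Control and 1510930 ± 216926 (SD, n = 6) in PNx+NaKtide (two-sided exact permutation p = 0.0281, Benjamini-Hochberg adjusted over 4 library measures 0.113, and 0.0519 or 0.0541 unadjusted without Control replicate 2 or PNx+NaKtide replicate 4). Genes detected, the share of mitochondrial counts and the share of counts in genes that overlap an opposite-strand gene gave exact permutation p of 0.361, 0.959 and 0.866 (n = 6 each). The counts did not follow the annotated strand. mt-Nd6, the mitochondrial mRNA on the minus strand, had 202817 counts per kb over the 12 libraries, against 2326 per kb for the 12 mitochondrial mRNAs on the plus strand. Genes with exon bases in common with an opposite-strand gene are 31.1% of those tested and took 77.5 to 83.9% of the counts. A value under a gene name is therefore the count assigned to that annotation and may not measure that gene's own transcript. This holds for genes without such an overlap too. Where 2 genes overlap on opposite strands, the counts of one may stand under the name of the other. Fewer cells of a type cannot be told from less RNA per cell in whole tissue.

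The 6 PNx+NaKtide libraries did not form 1 group. Over the tested genes, replicates 2, 3 and 4 correlated with each other at a Spearman correlation of 0.900 to 0.908, and replicates 1, 5 and 6 among themselves at 0.847 to 0.895, but between these sets it was 0.731 to 0.771. Replicates 2, 3 and 4 were nearer to Control replicates 1, 2, 5 and 6 (0.851 to 0.868) than to their own group's other libraries. Replicates 1, 5 and 6 correlated with Control replicates 3 and 4 at 0.848 to 0.886 and with the other 4 Control libraries at 0.799 to 0.880. The first principal component, with 43.3% of the variance of the 12 libraries, placed replicates 2, 3 and 4 on one side and replicates 1, 5 and 6 with Control replicates 3 and 4 on the other. The labels give no batch that matches this division, and values without replicates 2, 3 and 4 are given beside the results that rest on them. Without them, 118 genes were higher and 1052 lower at an unadjusted p under 0.05 by edgeR, and all tested genes had a median of -0.18 on the log2 scale. By the same alternative, the medians of 15 gene lists moved by more than the spread between libraries and those of 36 did not.

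**Figure D1:**
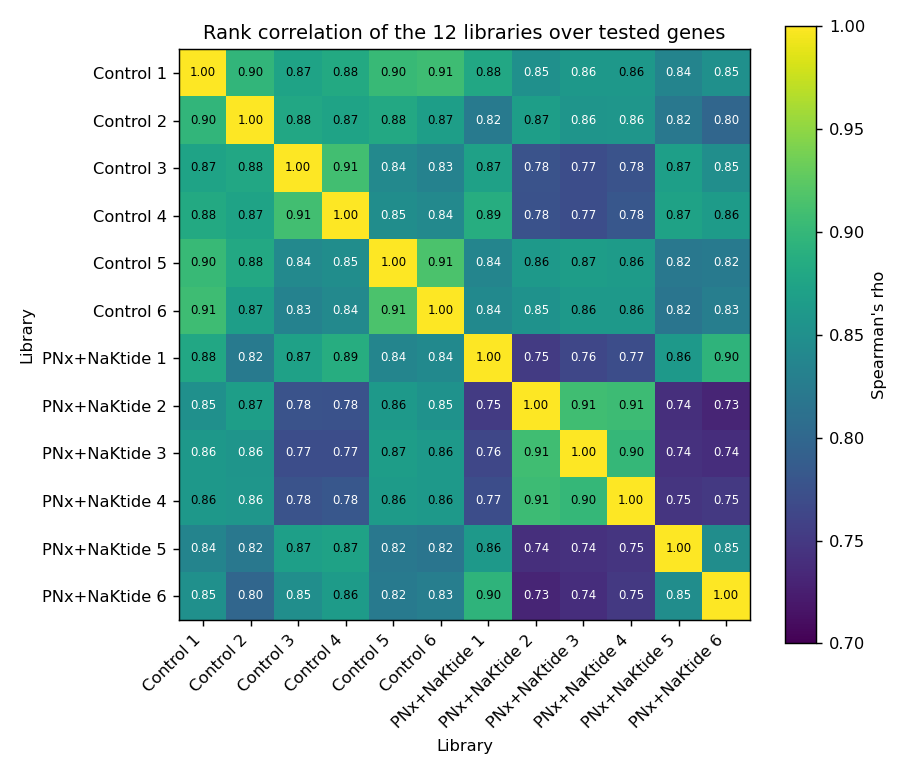
Rank correlation (Spearman, colour scale and printed values) between each pair of the 6 Control and 6 PNx+NaKtide libraries over the tested genes. PNx+NaKtide replicates 2, 3 and 4 correlate at 0.900 to 0.908 with each other and at 0.731 to 0.771 with replicates 1, 5 and 6.

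A library's distance from its own group, the median over genes of its absolute difference in log2 CPM from the median of the other 5 libraries, was larger with nephrectomy and NaKtide. It was 0.437 ± 0.032 in Control and 0.548 ± 0.049 in PNx+NaKtide (SD, n = 6 each, two-sided exact permutation p = 0.00433). The distances within a group depend on each other and were not recomputed for each assignment, so the p-values of this comparison are descriptions only. The Control distances ran from 0.389 to 0.488 and the PNx+NaKtide distances from 0.484 to 0.608. The difference fell short of the threshold when PNx+NaKtide replicate 1, 5 or 6 was left out, at differences of 0.0709, 0.0508 and 0.0559 (exact permutation p = 0.225, 0.186 and 0.305). Leaving out any of these takes a library away from 1 of the 2 sets described above.

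Complete separation of the groups went mostly one way. In 198 genes (0.758%) all 6 PNx+NaKtide libraries lay below the lowest Control library, and in 6 genes (0.023%) all 6 lay above the highest. Among genes of at least 5 CPM the counts were 118 (1.1%) and 4 (0.0373%). Of the 198 genes, 131 were protein-coding, 60 overlapped an opposite-strand gene, and 12 had no count in any PNx+NaKtide library. Their median GC content was 51.1% and their median exon length 2822 bases, against 49.3% and 2744 bases over all tested genes, and 30.3% of them overlapped an opposite-strand gene against 31.1%. The 198 genes had a median log2 fold change of -1.97, and in PNx and in NaKtide, compared with the same 6 Control libraries, their medians were -1.24 and -1.07 (all tested genes 0.36 and 0.00). Since those contrasts share the Control libraries, the 3 medians are not independent of each other. With DESeq2 size factors 129 genes lay below and 13 above, so the lower side held the larger count under that scaling too. Leaving out PNx+NaKtide replicate 1 or 5 raised the lower count to 309 and 348, and the count above all Controls became 10 to 46 when any library other than Control replicate 3 was left out. Without replicates 2, 3 and 4 the remaining 3 PNx+NaKtide libraries lay below all Controls in 1023 genes and above them in 176.

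**Figure D2:**
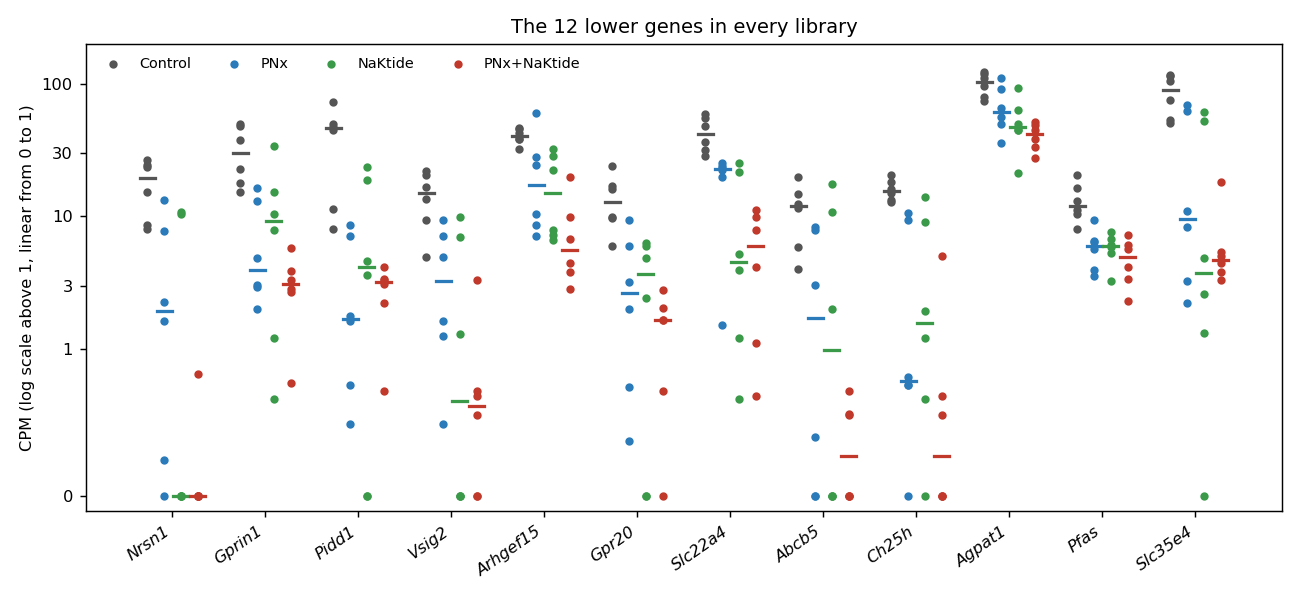
CPM of the 12 lower genes in each of the 24 libraries (points) with group medians (bars), on an axis that is logarithmic above 1 CPM and linear from 0 to 1. Every PNx+NaKtide library lies below every Control library for all 12 genes, and the PNx and NaKtide libraries spread over both ranges.

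Among the 12 protein-coding genes of lowest p on the lower side, 4 are described first, Nrsn1, Gprin1, Gpr20 and Arhgef15. Nrsn1 (ENSMUSG00000048978, chromosome 13, 25252040 to 25270502, GRCm38) ranged from 8.03 to 26.8 CPM in Control with a median of 19.5, while 5 of 6 PNx+NaKtide libraries had no count and 1 had 0.832 CPM. The groups did not overlap, at 194 counts in Control and 1 count in PNx+NaKtide, a ratio of rates of 156 with an exact 95% counting interval of 27.7 to 6209. Its log2 fold change was -6.61 (edgeR adjusted p = 0.316, SE 1.34, DESeq2 adjusted p = 0.00524, voom adjusted p = 1.82e-05). Gprin1 (ENSMUSG00000069227, chromosome 13, 54736671 to 54749874) ranged from 15.4 to 49.5 CPM in Control (median 30.3) and from 0.768 to 5.82 CPM in PNx+NaKtide (median 3.1). Its lowest Control library stood above its highest PNx+NaKtide library. The log2 fold change of Gprin1 was -3.28 (edgeR adjusted p = 0.320, SE 0.70, DESeq2 adjusted p = 0.00795). Gpr20, an orphan G protein coupled receptor, had 13.8 ± 6.5 CPM in Control and 1.48 ± 0.99 CPM in PNx+NaKtide (SD, n = 6 each). Arhgef15, a guanine nucleotide exchange factor found in endothelium, had 40.6 ± 5.6 and 7.98 ± 6.4 CPM.

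Pidd1 (ENSMUSG00000025507, chromosome 7, 141438113 to 141444025), which acts in p53-dependent caspase activation, ranged from 8.02 to 73.5 CPM in Control (median 46.1) and from 0.714 to 4.16 CPM in PNx+NaKtide (median 3.2). Its log2 fold change was -3.78 (edgeR adjusted p = 0.388, SE 0.85, DESeq2 adjusted p = 0.00795). The list of p53 targets did not share this direction, with 12 of 17 tested members at a positive log2 fold change, a median of 0.26 and 0 members at an unadjusted p under 0.05.

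Agpat1, which makes phosphatidic acid on the way to triglyceride and phospholipid, ranged from 73.8 to 124 CPM in Control (median 104) and from 27.7 to 51.3 CPM in PNx+NaKtide (median 41.7). It was the most abundant of the 12, and its log2 fold change was -1.30 (edgeR adjusted p = 0.524, SE 0.34, DESeq2 adjusted p = 0.0439). Agpat1 shares 101 exon bases with Egfl8 on the other strand. Ch25h, which hydroxylates cholesterol to an oxysterol, had 16.1 ± 3.0 CPM in Control and 1.04 ± 2.0 CPM in PNx+NaKtide, where replicate 5 had the highest value, 4.99 CPM. Pfas, an enzyme of purine synthesis, had 13.3 ± 4.5 and 4.82 ± 1.8 CPM. Abcb5, an efflux transporter, had 123 counts in Control and 3 in PNx+NaKtide, a ratio of rates of 33.1 (exact 95% counting interval 11.05 to 162). Slc35e4 had 86.1 ± 30 and 6.72 ± 5.7 CPM (log2 fold change -3.69, SE 0.97, DESeq2 adjusted p = 0.0298). Vsig2, an immunoglobulin domain membrane protein, had 14.5 ± 6.6 and 0.879 ± 1.2 CPM. All 12 genes were called by DESeq2 and by voom, and 11 by edgeR fitted to the 12 libraries alone. The genes were chosen by lowest edgeR p on the same counts, so these calls are not independent of that choice.

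Among the further genes that DESeq2 called lower, 2 of lower abundance are given. Dse, which converts glucuronic to iduronic acid in dermatan sulfate, had 8.50 ± 2.4 and 0.955 ± 0.94 CPM. Nyx, a leucine-rich repeat proteoglycan known from the retina, had 8.39 ± 3.9 and 0.555 ± 0.70 CPM. Of the 28 lower genes that DESeq2 called, 26 lay below all Control libraries, 19 were protein-coding and 19 had no opposite-strand overlap.

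Without replicates 2, 3 and 4 the sign of these 12 genes could hardly change, since all 6 PNx+NaKtide libraries lay below all Controls. There, all 12 genes had a negative log2 fold change, -5.90 for Nrsn1, -2.92 for Gprin1, -3.40 for Pidd1, -4.41 for Slc22a4 and -1.47 for Agpat1, though 0 genes were then called by edgeR and the lowest adjusted p was 0.969. In the groups with only 1 intervention the means of the same genes lay between, but single libraries were often at one level or the other. Nrsn1 had 10.8 and 10.5 CPM in NaKtide replicates 1 and 3 and no count in the other 4. Arhgef15 had 60.8 CPM in PNx replicate 6, above the highest Control library at 46.7 CPM. Nrsn1 averaged 4.20 CPM in PNx and 3.55 CPM in NaKtide, with log2 fold changes over Control of -2.19 (edgeR adjusted p = 0.158) and -2.16 (edgeR adjusted p = 1). Gprin1 averaged 7.07 CPM in PNx and 11.6 CPM in NaKtide, with log2 fold changes of -2.23 and -1.42 (edgeR adjusted p = 0.128 and 1). The difference between PNx+NaKtide and PNx was not called for either gene, with log2 fold changes of -4.43 and -1.06 (edgeR adjusted p = 0.357 and 0.455). All of these contrasts with Control rest on the same 6 Control libraries.

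Genes that lay below all Controls also stood beside each other in the genome. Of the 198, 48 genes formed 25 pairs that lie within 100 kb, a description that was not tested against chance. The longest run holds 4 genes on chromosome 11, Slc22a5, Gm12217, Gm12218 and Slc22a4. Slc22a5 carries carnitine, which fatty acids need to enter mitochondria, into cells. Slc22a4 ranged from 28.8 to 59.5 CPM in Control (median 42.1) and from 0.679 to 11.1 CPM in PNx+NaKtide (median 6.01), a log2 fold change of -2.88 (edgeR adjusted p = 0.441, SE 0.71, DESeq2 adjusted p = 0.0568). Slc22a5 ranged from 4.08 to 10.7 CPM in Control (median 5.28) and from 0.832 to 2.71 CPM in PNx+NaKtide (median 1.60), a log2 fold change of -1.91 (edgeR adjusted p = 0.907, SE 0.59, DESeq2 adjusted p = 0.331). Gm12217 had 20 counts in the 12 libraries, 0 of them in PNx+NaKtide. Slc22a21, the third transporter of the family here, lies between them and had 32.3 ± 11 CPM in Control and 17.4 ± 16 CPM in PNx+NaKtide, with overlapping groups and a log2 fold change of -0.89 (edgeR adjusted p = 1, SE 0.81). That of Slc22a21 was -3.11 without replicates 2, 3 and 4. Irf1 and P4ha2 on either side had log2 fold changes of -0.39 and -0.56 and overlapped as well.

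**Figure D3:**
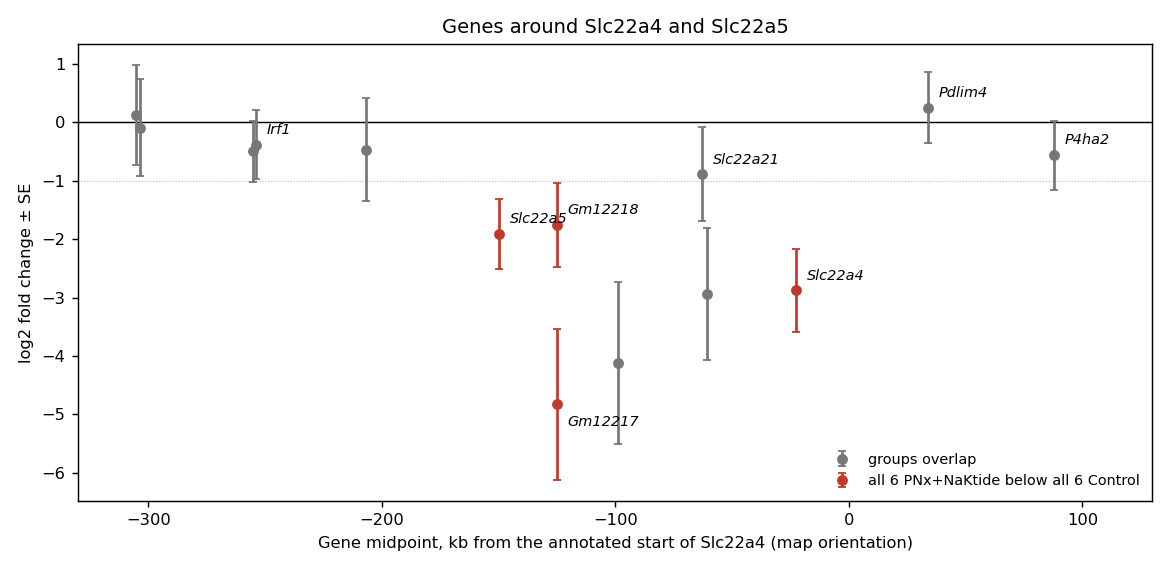
log2 fold change of PNx+NaKtide over Control with its SE for the tested genes around Slc22a4, against the distance of each gene's midpoint from the annotated start of Slc22a4 in kb. The 4 genes with every PNx+NaKtide library below every Control library (Slc22a5, Gm12217, Gm12218 and Slc22a4) have values between -1.76 and -4.83, and Pdlim4 beside them has 0.25.

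Other pairs included Arhgef15 with Pfas on chromosome 11, Vsig2 with Nrgn (neurogranin, a calmodulin-binding protein) on chromosome 9, and Ch25h with the opposite-strand gene Gm26902 on chromosome 19. Ch25h and Gm26902 share 159 exon bases, and Gm26902 had 87.1 ± 23 CPM in Control and 4.18 ± 6.1 CPM in PNx+NaKtide, so that the lower counts at this site cannot be given to either strand. Nrgn had 34.3 ± 3.4 and 11.9 ± 4.4 CPM. Selp, the adhesion molecule P-selectin of platelets and endothelium, shares 438 exon bases with Gm16548, and it had 8.49 ± 1.4 and 1.85 ± 1.4 CPM. Nrgn, Selp and Gm26902, like the other gene pairs, were singled out after their values were seen. The epididymal secretory genes Defb22 (109 ± 22 and 8.14 ± 14 CPM) and Pate2 (704 ± 204 and 113 ± 176 CPM) also lay below all Controls, while the summed epididymis list overlapped between the groups (1439 to 3732 CPM in Control, 1796 to 3712 CPM in PNx+NaKtide). With the summed epididymis list as a covariate edgeR called 12 genes, 11 of them lower. That fit does not measure the part of epididymal RNA in the lower genes, which was not tested.

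The start regions of the 2 neighbouring transporters, of Gprin1 and Pidd1 as the strongest lower genes with an entry beside Nrsn1, and of Cdc25a as the higher gene of lowest p are shown so that shared sequence can be seen. They are the 250 bases before the RefSeq start on GRCm38.p6, at chr11:54028105-54028354, chr11:53891704-53891953, chr13:54749875-54750124 and chr7:141444026-141444275 on the minus strand and chr9:109875329-109875578 on the plus strand, written 5′ to 3′. The bases soon after the start were found in an annotated transcript of the gene for each region but that of Slc22a5. Capitals mark the GC box GGGCGG, which Sp1 family factors are known to bind, and the E2F site TTTGGCGC, both searched on either strand, where adjoining capitals may hold overlapping GC boxes.
Slc22a4: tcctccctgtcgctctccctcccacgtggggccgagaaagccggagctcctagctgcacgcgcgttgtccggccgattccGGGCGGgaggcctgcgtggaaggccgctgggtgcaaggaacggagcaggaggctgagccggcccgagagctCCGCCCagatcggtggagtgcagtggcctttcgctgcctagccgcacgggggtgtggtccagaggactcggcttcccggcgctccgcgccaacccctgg
Slc22a5: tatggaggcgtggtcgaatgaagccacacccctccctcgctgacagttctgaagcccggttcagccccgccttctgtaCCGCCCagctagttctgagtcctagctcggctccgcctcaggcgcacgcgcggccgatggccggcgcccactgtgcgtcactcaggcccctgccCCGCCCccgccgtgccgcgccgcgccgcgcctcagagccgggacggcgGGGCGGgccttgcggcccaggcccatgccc
Gprin1: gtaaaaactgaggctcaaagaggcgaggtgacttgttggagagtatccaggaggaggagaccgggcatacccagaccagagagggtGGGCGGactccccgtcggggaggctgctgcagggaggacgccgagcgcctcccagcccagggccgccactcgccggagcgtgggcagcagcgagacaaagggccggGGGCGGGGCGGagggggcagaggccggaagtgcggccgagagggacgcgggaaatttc
Pidd1: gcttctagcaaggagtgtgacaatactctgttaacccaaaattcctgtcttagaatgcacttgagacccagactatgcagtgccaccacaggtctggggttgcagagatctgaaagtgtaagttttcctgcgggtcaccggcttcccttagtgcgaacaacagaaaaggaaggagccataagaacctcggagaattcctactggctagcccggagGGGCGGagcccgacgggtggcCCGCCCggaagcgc
Cdc25a: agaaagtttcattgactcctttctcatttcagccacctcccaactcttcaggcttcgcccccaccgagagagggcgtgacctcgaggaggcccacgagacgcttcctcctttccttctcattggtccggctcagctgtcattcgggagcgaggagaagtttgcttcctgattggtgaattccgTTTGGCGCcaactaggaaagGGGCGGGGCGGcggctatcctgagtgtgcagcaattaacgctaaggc
All 5 regions hold at least 1 GC box, as do 32.7% of the 32851 regions of this length in the table. Of the 12 lower genes, 8 have an entry and 5 of these hold a GC box, and of the 12 higher genes 11 have an entry and 8 hold one. The E2F site, known from genes of the S phase, is in Cdc25a and in Zfp213 among the higher genes, in none of the lower genes with an entry, and in 0.417% of all regions. The core of the antioxidant response element, TGACNNNGC, is in Slc35e4 among the lower and Clec16a among the higher genes, and in 10.2% of all regions. The CArG box of smooth muscle genes is in none of the 11 higher genes with an entry, in 1 (Myl9) of the 9 smooth muscle genes with an entry, and in 1.47% of all regions.

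Genes with higher values in PNx+NaKtide were mostly high in 3 of the 6 libraries. Cdc25a, the phosphatase that opens the cell cycle for DNA replication, had 39.0, 32.1 and 30.7 CPM in replicates 2, 3 and 4, and 1.11, 2.50 and 6.79 CPM in replicates 1, 5 and 6, against 1.34 to 3.71 CPM in Control. Its log2 fold change was 2.78 (edgeR adjusted p = 0.388, SE 0.65, DESeq2 adjusted p = 0.0357). Without replicates 2, 3 and 4 it was 0.40. The other 4 genes that DESeq2 called higher were Gm13857 and Gm15816, described below, 4732414G09Rik, which had 1.57 ± 0.88 CPM in Control and 11.3 ± 9.4 CPM in PNx+NaKtide, and a second gene annotated as Aldoa with 7 counts in PNx+NaKtide and 0 in Control. Of 35 tested genes of the cell cycle list, Cdc25a alone passed an unadjusted p of 0.05, and the median of the list was 0.11.

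The contractile genes of smooth muscle followed the same libraries. Myh11, the smooth muscle myosin heavy chain, had 278, 338 and 380 CPM in replicates 2, 3 and 4 and 70.8, 25.8 and 82.8 CPM in replicates 1, 5 and 6, against 48.5 to 79.8 CPM in Control. Smtn (smoothelin) had 52.1 to 55.3 CPM in replicates 2, 3 and 4 against 6.00 to 8.75 CPM in Control, Cnn1 (calponin) 21.7 to 50.7 against 4.32 to 10.2 CPM, and Cald1 (caldesmon) 105 to 127 against 2.96 to 12.1 CPM. In replicate 5 all of these genes were below the lowest Control value. Smtn shares 714 exon bases with the opposite-strand gene Gm11946. Of the 10 smooth muscle genes tested, 3 (Myh11, Smtn and Cnn1) were higher at an unadjusted p under 0.05 by edgeR, 8 had a positive log2 fold change, and the median was 1.00. Their summed level was 716 to 903 CPM in replicates 2, 3 and 4, 307 to 428 CPM in replicates 1, 5 and 6 and 319 to 426 CPM in Control. Without replicates 2, 3 and 4 the median was -0.01, and Myh11, Smtn and Cald1 had log2 fold changes of -0.08, -0.02 and -0.37. Acta2, Myl9 and Des, which passed no test, had the higher means with nephrectomy and NaKtide, 33.7 ± 16 against 16.6 ± 6.6 CPM for Acta2, the smooth muscle actin.

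**Figure D4:**
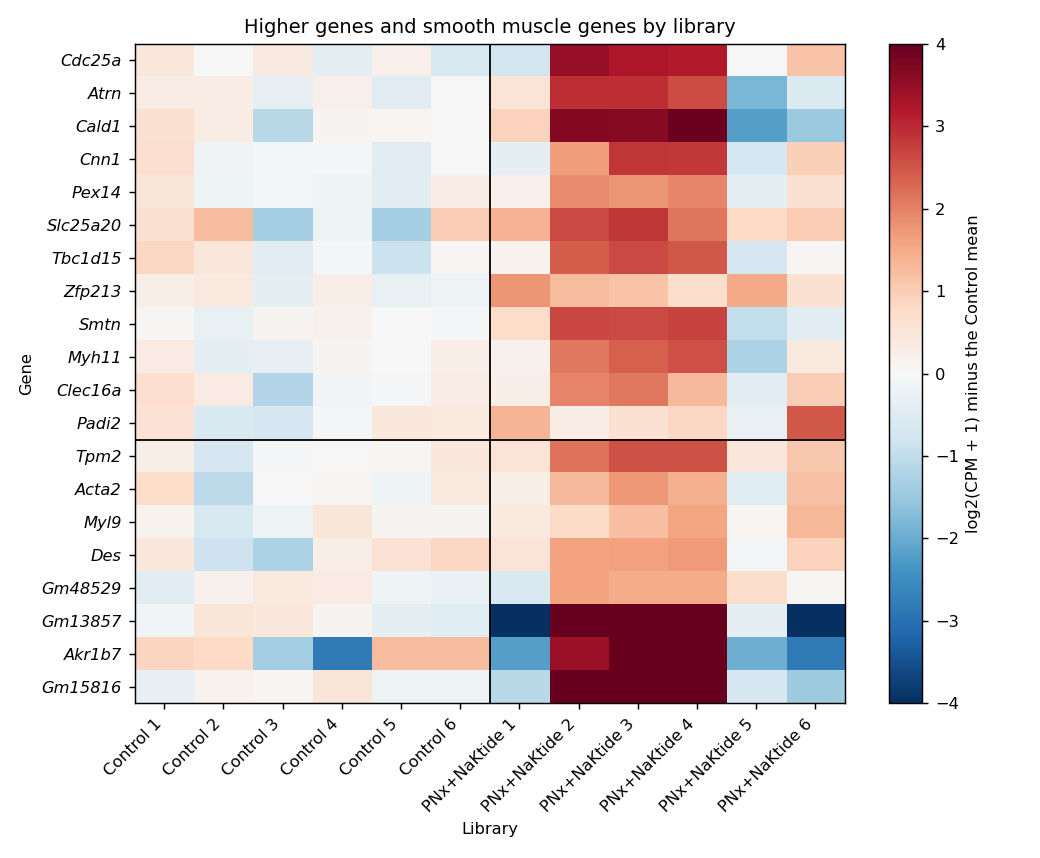
Difference of log2(CPM + 1) from the Control mean (colour, clipped at 4 in either direction) for the 12 higher genes, above the line, and for genes named with smooth muscle or with replicates 2, 3 and 4, below it, in each of the 12 libraries. Replicates 2, 3 and 4 of PNx+NaKtide carry the high values, while Zfp213 and Tpm2 are above every Control library in all 6.

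The largest values of these 3 libraries were in genes that overlap an opposite-strand gene. Gm13857 (chromosome 6, 34419396 to 34445436) had 12448, 12234 and 12179 CPM in replicates 2, 3 and 4, 6.64, 179 and 10.9 CPM in replicates 1, 5 and 6, and 165 to 327 CPM in Control. It shares 348 exon bases with Akr1b7, an aldose reductase known as the mouse vas deferens protein. Akr1b7 had 75.2, 116 and 112 CPM in the same libraries and at most 16.1 CPM in the other 9 of the 12 compared. In PNx, Akr1b7 had 54.5, 77.5 and 51.7 CPM in replicates 1, 2 and 3 and at most 2.97 CPM in replicates 4, 5 and 6, so high values were not particular to PNx+NaKtide. DESeq2 called Gm13857 (adjusted p = 0.0193), edgeR did not (adjusted p = 0.821), and without the 3 libraries its log2 fold change turned from 4.69 to -1.76. Gm15816, opposite Ank1, had 283 to 334 CPM in replicates 2, 3 and 4 and at most 10.5 CPM in the other 9 of the 12 compared libraries. In NaKtide, Gm15816 had 648 CPM in replicate 6 and 3.94 to 6.31 CPM in replicates 1 to 5. Gm48529 shares 1241 exon bases with the smooth muscle gene Tagln. Counts assigned to Gm48529 were 5684 to 6087 CPM in replicates 2, 3 and 4 and 1515 to 2613 CPM in Control. Those assigned to Tagln were 136 ± 19 CPM in Control and 125 ± 14 CPM in PNx+NaKtide. As the counts did not follow the annotated strand, values under Gm48529 and Gm13857 may hold transcripts of Tagln and Akr1b7. Whether they do was not tested. The part of smooth muscle or vas deferens RNA in these values was not tested.

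Germ cell markers were high in the same 3 libraries. The 18 sperm and spermatid genes summed to 707 to 1283 CPM in Control, to 1515 to 1851 CPM in PNx+NaKtide replicates 2, 3 and 4 and to 521 to 621 CPM in replicates 1, 5 and 6. Replicates 2, 3 and 4 thus lay above all Controls and replicates 1, 5 and 6 below them, and Control replicates 3 and 4 were the lowest Controls, at 755 and 707 CPM. The 16 meiotic germ cell genes summed to 176 to 236 CPM in replicates 2, 3 and 4, 79.0 to 97.8 CPM in replicates 1, 5 and 6 and 88.2 to 199 CPM in Control. With only replicates 1, 5 and 6 the median log2 fold change was -2.30 for sperm and spermatid genes and -1.73 for meiotic germ cell genes, against 0.28 and 0.56 with all 6. The part of germ cell RNA in the values of these libraries was not tested.

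Of the 56 higher genes of at least 5 CPM, 48, 52 and 52 were above every Control library in replicates 2, 3 and 4, and 22, 5 and 22 in replicates 1, 5 and 6. In 44 of them replicates 2, 3 and 4 were all above, and in 24 of them no library of replicates 1, 5 and 6 was. Atrn (attractin, a membrane protein of pigment and myelin) had 48.5, 48.6 and 38.4 CPM in replicates 2, 3 and 4 against 3.70 to 7.0 CPM in Control. Atrn was at 8.30 CPM in replicate 1, above all Controls, and at 0.832 and 3.39 CPM in replicates 5 and 6, below them. Pex14, a peroxisome import protein, had 53.6 to 62.2 CPM in replicates 2, 3 and 4 against 11.1 to 21.8 CPM in Control, and it shares 1776 exon bases with Gm17029. Its log2 fold change was 0.22 without those 3 libraries.

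Some genes were higher in all 6 libraries. Zfp213, a zinc finger protein, ranged from 13.6 to 31.6 CPM (median 21.1) against 6.51 to 11.5 CPM in Control (median 8.79), a log2 fold change of 1.27 (edgeR adjusted p = 1, SE 0.47, edgeR on the 12 libraries alone 0.0713). It shares 1250 exon bases with Gm26695, and its log2 fold change was 1.48 without replicates 2, 3 and 4. Tpm2, a tropomyosin of the contractile apparatus, ranged from 27.4 to 121 CPM (median 67.9) against 12 to 26.8 CPM in Control (median 20.1), and its log2 fold change was 1.84 (edgeR adjusted p = 1, SE 0.81, voom adjusted p = 0.0261). That of Tpm2 was 0.76 without replicates 2, 3 and 4. The other 4 genes above all Controls were Taf11, Rbfox3, Ramac and Lrrc49, with log2 fold changes between 0.60 and 0.98 that no test called. With library size alone as the scaling 3 genes lay above all Controls.

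Slc25a20, which exchanges carnitine for acylcarnitine across the inner mitochondrial membrane, was the 1 gene of 17 on the fatty acid oxidation list to pass an unadjusted p of 0.05. It had 2.16 ± 2.1 CPM in Control and 9.09 ± 5.8 CPM in PNx+NaKtide, a log2 fold change of 2.03 (edgeR adjusted p = 1, SE 0.72, voom adjusted p = 0.0267). Slc25a20 stood at 14.5, 17.1 and 9.98 CPM in replicates 2, 3 and 4 and at 5.54, 3.33 and 4.07 CPM in replicates 1, 5 and 6, and without the first 3 its log2 fold change was 1.03. The means of Slc22a5 and Slc25a20 lay on opposite sides of Control. The list had 14 of 17 members at a positive value and a median of 0.34, with all genes at 0.04.

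The 8 genes that the study picked from the Na,K-ATPase signalling pathway for quantitative RT-PCR did not separate the groups. They are a part of that pathway. The study's RT-PCR compared PNx with Control and PNx+NaKtide with PNx, and it reports these genes as raised in PNx and brought back by NaKtide. Of 8 tested, 0 passed an unadjusted p of 0.05, and the median log2 fold change was 0.10. Nos3, the endothelial nitric oxide synthase, had 17.1 ± 12 CPM in Control and 37.4 ± 37 CPM in PNx+NaKtide (log2 fold change 1.13, edgeR adjusted p = 1, SE 0.87), and again 86.9, 62.9 and 59.9 CPM of this lay in replicates 2, 3 and 4 against 2.50 to 8.30 CPM in the other 3. Without them the log2 fold change was -1.66. In PNx, Nos3 had 174, 149 and 84.0 CPM in replicates 1, 2 and 3 and 4.16 to 34.3 CPM in replicates 4, 5 and 6. Nos3 shares 1040 exon bases with the opposite-strand gene Gm15587. Cdkn1a, the cell cycle inhibitor p21, had 2.99 ± 2.4 and 4.79 ± 3.0 CPM, and Creb1, a transcription factor that cyclic AMP activates, had 5.5 ± 2.3 and 5.81 ± 2.0 CPM. Prkca, Chuk and Tlr4 had 9, 23 and 6 counts in all 12 libraries, too few to measure. Src itself had 7.81 ± 2.1 CPM in Control and 7.15 ± 3.2 CPM in PNx+NaKtide (log2 fold change -0.12, edgeR adjusted p = 1, SE 0.45). Of 10 Src family kinases and Csk, 0 passed an unadjusted p of 0.05.

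Adipocyte genes did not part the groups either. Adipoq, whose promoter drives the transgene, had 31.0 ± 19 CPM in Control and 28.3 ± 18 CPM in PNx+NaKtide (log2 fold change -0.12, edgeR adjusted p = 1, SE 0.78), and its sign turned positive in 6 alternatives. Fabp4, the fatty acid binding protein of adipocytes, had 145 ± 78 and 93.9 ± 69 CPM (log2 fold change -0.63, edgeR adjusted p = 1, SE 0.89). The summed adipocyte markers (29 of 30 tested) ranged from 489 to 1278 CPM in Control and from 244 to 1853 CPM in PNx+NaKtide. The ranges overlapped, and the PNx+NaKtide range reached past Control on both sides, with replicate 5 below all Controls and replicate 1 above them. The lists of adipokines (14 tested, median -0.17), fatty acid uptake and binding (13, -0.11), lipogenesis and triglyceride synthesis (18, -0.04), adipogenic transcription factors (16, 0.10), thermogenesis (10, 0.73) and insulin signalling (18, -0.18) had 0 members at an unadjusted p under 0.05. On the lipid droplet and lipolysis list 1 of 21 members did, Plin5, a lipid droplet coat protein of oxidative tissue, with 8.47 ± 3.6 CPM in Control and 4.05 ± 0.91 CPM in PNx+NaKtide (log2 fold change -1.06, edgeR adjusted p = 1, SE 0.42).

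**Figure D5:**
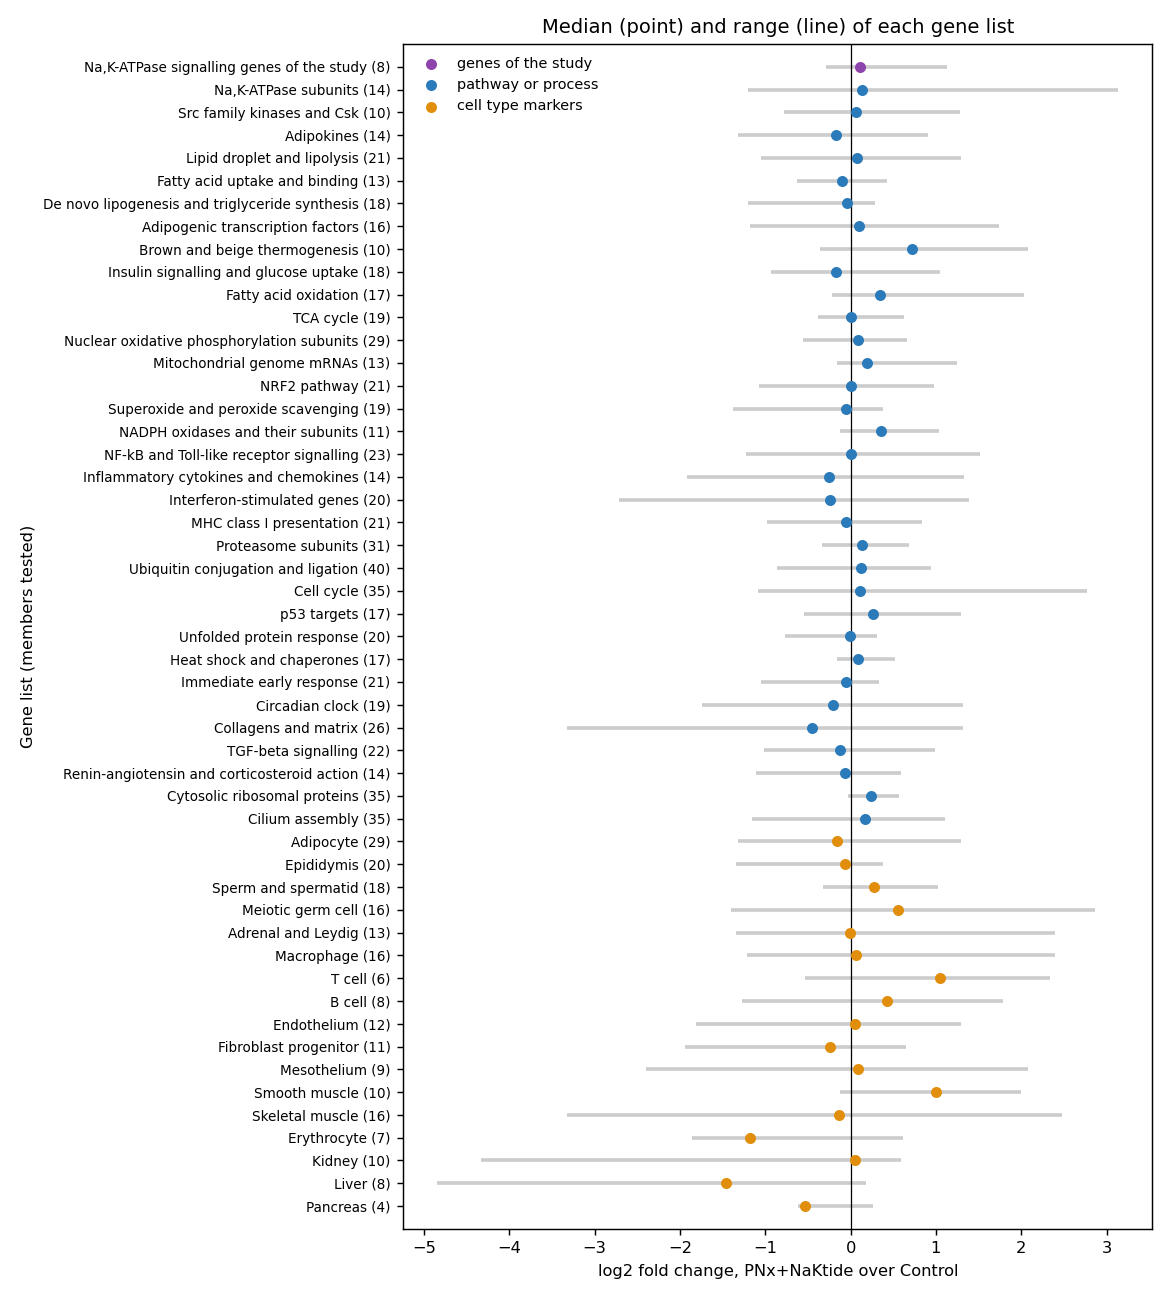
Median (point) and range (grey line) of the log2 fold change of PNx+NaKtide over Control for the tested members of each gene list, with the number tested in parentheses, coloured by the kind of list. Most medians lie near the 0.04 of all tested genes, with T cell markers (1.04) and smooth muscle (1.00) at the upper end and liver (-1.46) and erythrocyte markers (-1.18) at the lower end.

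Oxidant defence, the process around which the study was built, had 1 of 21 and 1 of 19 members lower at an unadjusted p under 0.05 in its 2 lists, beside 1.98% of all tested genes. Srxn1 (sulfiredoxin, which restores overoxidised peroxiredoxins) had 47.0 ± 17 CPM in Control and 22.3 ± 9.8 CPM in PNx+NaKtide (log2 fold change -1.07, edgeR adjusted p = 1, SE 0.47), with 4 of 6 libraries below the lowest Control. Prdx4, the peroxiredoxin of the endoplasmic reticulum, ranged from 6.69 to 15.4 CPM in Control (median 10.3) and from 3.32 to 5.43 CPM in PNx+NaKtide (median 4.09). All 6 PNx+NaKtide libraries were below all Controls for Prdx4, with a log2 fold change of -1.38 (edgeR adjusted p = 1, SE 0.47, DESeq2 adjusted p = 0.45). The medians were 0.01 for the NRF2 pathway and -0.05 for superoxide and peroxide scavenging. Hmox1, heme oxygenase, had 25 counts in the 12 libraries. The NADPH oxidase list had 10 of 11 members at a positive log2 fold change with a median of 0.36, and 0 at an unadjusted p under 0.05.

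mt-Nd3 had 14.0 ± 8.4 CPM in Control and 33.0 ± 17 CPM in PNx+NaKtide (log2 fold change 1.25, edgeR adjusted p = 1, SE 0.52), the 1 of 13 mitochondrial mRNAs (median 0.19) to pass an unadjusted p of 0.05. Nuclear subunits of oxidative phosphorylation (29 tested, median 0.08) and the TCA cycle (19, 0.00) had 0. Cytosolic ribosomal proteins had 34 of 35 members at a positive log2 fold change, a median of 0.24 and 0 members at an unadjusted p under 0.05, and their median was -0.01 without PNx+NaKtide replicate 6 and 0.66 without replicates 2, 3 and 4.

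Proteasome subunits (31 tested, median 0.13), ubiquitin conjugation and ligation (40, 0.13), MHC class I presentation (21, -0.06), the unfolded protein response (20, -0.01), heat shock and chaperones (17, 0.09), NF-kB and Toll-like receptor signalling (23, 0.00) and inflammatory cytokines and chemokines (14, -0.25) had 0 members at an unadjusted p under 0.05. Neither did immediate early genes (21, -0.05), TGF-beta signalling (22, -0.12), renin-angiotensin and corticosteroid genes (14, -0.06) or cilium assembly (35, 0.17). Cry2, a repressor of the circadian clock, was the 1 of 19 clock genes that did, with 11.8 ± 3.7 CPM in Control and 3.49 ± 1.9 CPM in PNx+NaKtide (log2 fold change -1.75, edgeR adjusted p = 0.863, SE 0.53, voom adjusted p = 0.0153). It shares 295 exon bases with an opposite-strand gene. Collagens and matrix had 19 of 26 members at a negative value and a median of -0.45 (-0.10 without replicates 2, 3 and 4), and the 1 member at an unadjusted p under 0.05 was Lox, with 7 counts in Control and 0 in PNx+NaKtide. Interferon-stimulated genes had 1 of 20, Mx2, with 4 counts in Control and 0 in PNx+NaKtide.

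Other tissues had few marker genes past the unadjusted threshold, although the summed CPM, not scaled for length, of the epididymis and kidney lists exceeded that of the adipocyte list in all 12 libraries and that of the sperm and spermatid list did in 10 of 12. The 8 liver genes tested summed to 14.2 to 51.5 CPM in Control and 1.66 to 69.7 CPM in PNx+NaKtide, with a median of -1.46, and 2 were lower at an unadjusted p under 0.05, Alb and Apoa1, with 21 and 14 counts in the 12 libraries. Of 10 kidney genes 2 were lower, Lrp2 and Kap, with 61 and 13 counts, and the median was 0.06. Nephrin, Nphs1, which shares exon bases with the antisense gene Nphs1os, made up most of their summed level, at 3809 ± 553 CPM in Control and 4024 ± 1917 CPM in PNx+NaKtide. The medians in replicates 1, 5 and 6 alone were -1.52 for kidney, -1.89 for liver, -0.99 for T cell, -1.27 for B cell, -0.73 for pancreas and -1.37 for adrenal and Leydig markers. Macrophage (16 tested, median 0.07), B cell (8, 0.43), endothelium (12, 0.05), fibroblast progenitor (11, -0.24), mesothelium (9, 0.09), skeletal muscle (16, -0.14), erythrocyte (7, -1.18), pancreas (4, -0.54), adrenal and Leydig (13, -0.01), sperm and spermatid (18) and epididymis markers (20, -0.07) had 0 at an unadjusted p under 0.05. T cell markers had a median of 1.04 and 1 of 6 at that threshold (Cd8b1, 8 counts) and meiotic germ cell markers 1 of 16 (Stra8, 11 counts).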

How the data were processed

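RNA from adipose tissue was sequenced as stranded mRNA libraries, and groups and replicate numbers came from the sample labels. The authors trimmed the reads with Trimmomatic 0.38, aligned them to GRCm38 with HISAT2 2.1.0 and deposited raw counts per gene, normalized values (not used here) and FPKM, with DESeq2 1.20.0 among the tools of the submitters' processing notes. The strand setting behind these values is not given in the sources used here, and the deposited FPKM values served only for alternatives, as log2(FPKM + 1) or log2(FPKM + 0.1). The labels number the samples within each group, and nothing says that a number joins animals of 2 groups.

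Annotation was GENCODE M21 (54165 of 54232 gene identifiers matched). Genes with more than 10 counts over 24 libraries were kept. Counts were tested with edgeR 4.0.16 (TMM scaling, robust dispersion, quasi-likelihood F-test, 1 fit of 4 group means, Benjamini-Hochberg adjusted p under 0.1). A log2 fold change is PNx+NaKtide over Control, its SE is the absolute value divided by the square root of F, and CPM are scaled by TMM. DESeq2 1.42.0 and limma 3.58.1 gave alternatives, in R 4.3.3. Single values were compared by two-sided exact permutation over 924 assignments. The scripts were tested on simulated data. Intervals and floors cover counting error only.

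Named genes are the 12 protein-coding genes of lowest p in each direction whose mean reached 5 CPM, up to 10 named DESeq2 calls per direction, the signalling genes of the study, Src, Adipoq, and up to 4 members of each of 52 lists by lowest p. Of the list members, those at an unadjusted p under 0.05 are given. Other genes were chosen after their values were seen. Members and lists were chosen with earlier results of these data known. Some genes under the rule are not reported here. Every pair of libraries within a group differed by more than sampling noise (lowest chi-square per degree of freedom 1.57), but some pairs were much closer than others. PNx+NaKtide replicates 2, 3 and 4 were at 1.93 to 2.60 from each other, and the other pairs of that group at 14.3 to 30.3. Control replicates 5 and 6 were at 1.57 and Control replicates 3 and 4 at 2.62, and the other Control pairs at 6.32 to 15.0. The cause of this closeness was not tested, and n = 6 counts libraries.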

Additional observations from a re-analysis of the deposited data

Results flagged for a closer look

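In a group of 6 libraries, 1 library lay apart from the other 5 by Dixon's criterion in 12 of 136 groups examined. The limit is set for about 1 in 20 by chance, but only for independent and normally spread values. The 2 numbers cannot be compared here, since the groups share libraries and some genes stood near 0 counts. Nrsn1 was flagged on 1 count in PNx+NaKtide replicate 5 and 0 in the other 5. PNx+NaKtide replicate 5 had the highest log2 CPM of its group for 7 genes that were lower than in Control, namely Nrsn1 (0.95), Vsig2 (2.15), Ch25h (2.61), Slc35e4 (4.28), Gm26902 (4.15), Defb22 (5.24) and Pate2 (8.89), and the nearest other library of its group stood at 0.13, 0.86, 0.83, 2.71, 1.77, 2.31 and 5.59. Cdkn1a was lowest in the same library (0.13, nearest 2.31). PNx+NaKtide replicate 1 had the highest adipocyte list sum, 1853 CPM against 845 CPM in the nearest library, and the lowest log2 CPM of Creb1 (1.73 against 2.69). Control replicate 1 was highest for Cnn1 (3.50 against 2.83) and Control replicate 2 for Slc22a21 (5.77 against 4.97).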

How the results depend on the processing

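The count of called genes, 0 by edgeR, was 33 with DESeq2, 319 with limma voom, 84 with the 12 compared libraries alone, 31 and 2 with limma on log2(FPKM + 1) and log2(FPKM + 0.1), 12 with the epididymis list sum as a covariate, and 0 to 1 when 1 library was left out (1 without Control replicate 6). It stayed at 0 with DESeq2 size factors or library size alone, no filter, filterByExpr, genes without opposite-strand overlap and an adjusted p under 0.05. Replicate numbers did not pair the libraries, since the correlation of same-numbered deviations ran from -0.39 to 0.40 and 1 of 6 libraries correlated best with its own number. With a replicate block 0 genes were called and 829 were at an unadjusted p under 0.05. The unadjusted count of 942 was 285 with filterByExpr, 2721 with voom and 1762 with the 12 libraries alone. The cause of these differences was not tested.

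The count below all Controls was 129 with DESeq2 size factors, 1023 without PNx+NaKtide replicates 2, 3 and 4 (chosen after seeing the data, as were all alternatives of these counts), and 215 to 348 when 1 library was left out. The count above was 3 with library size alone and with genes without opposite-strand overlap, 13 with DESeq2 size factors, 176 without replicates 2, 3 and 4, and 8 to 46 when 1 library was left out. The difference between the groups in a library's distance from its own group ranged from 0.0508 to 0.148 when 1 library was left out. It was past the threshold except without PNx+NaKtide replicate 1, 5 or 6. The difference in total counts ranged from -442392 to -264734 when 1 library was left out, that in the opposite-strand share from -0.394 to 0.894 percentage points, and that in the mitochondrial share from -0.198 to 0.127 percentage points.

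Without replicates 2, 3 and 4 the log2 fold change turned negative for Atrn (-0.37), Cald1 (-0.37), Tbc1d15 (-0.27), Smtn (-0.019), Myh11 (-0.075), Nos3 (-1.66), Creb1 (-0.065), Gm13857 (-1.76), Akr1b7 (-4.12) and Gm15816 (-1.25), and positive for Src (0.13). Creb1 was -0.039 with genes without opposite-strand overlap, and Adipoq was 0.21 both with voom and with the replicate block. When 1 library was left out, Creb1 ranged from -0.071 to 0.28 (negative without Control replicate 6 or PNx+NaKtide replicate 3 or 6), Src from -0.34 to 0.0088 (positive without Control replicate 1) and Adipoq from -0.36 to 0.13 (positive without Control replicate 5 or 6 or PNx+NaKtide replicate 5 or 6). Of the named genes, DESeq2 called 20, voom 28, the 12 libraries alone 21, limma on log2(FPKM + 1) 11, log2(FPKM + 0.1) 1 and the epididymis covariate 6. List medians moved by more than the spread between libraries in 57 recomputed values and by less in 861. The depth of 1281905 to 2366069 counts leaves genes of a few CPM with low precision.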
